A study of Mus musculus with 16 samples.

Results

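The comparison described here sets the mRNA of wild-type mouse embryonic stem cells at 48 h of differentiation against the mRNA of the same line in 2iL. Its members are the 12233 of 41258 entries of the authors' gene table that reached 1 FPKM (fragments scaled by transcript length and by the size of the library) in at least 2 of the 4 wild-type libraries. A gene symbol was matched for 12178 of them. Cells of the first group were kept in 2iL, medium with inhibitors of MEK and GSK3 plus LIF, and cells of the second group were differentiated for 48 h in N2B27 with bFGF and KSR. Each group held 2 libraries, called biological replicates in the study design. Nothing says whether they came from separate cultures, so p-values measure only the spread between these samples, which may be technical. All wild-type libraries came from 1 line, labelled v65, of mixed 129/C57BL/6 background. The 4 libraries of Dgcr8-/- cells in the same 2 media came from 1 other line, labelled ES1, of the same background, and entered the fit and the last comparison only.

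Inhibition of MEK blocks ERK signalling, inhibition of GSK3 stabilises beta-catenin and LIF activates STAT3, and the combination holds embryonic stem cells in a naive state that resembles the epiblast before implantation. When the inhibitors and LIF are withdrawn and FGF is supplied, ERK signalling resumes, the naive transcription factors are shut down, and cells pass into a formative state that resembles the epiblast just after implantation. In the embryo this transition coincides with the epiblast becoming a polarised epithelium on a basement membrane, and with a known change in how the cells use fuel.

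The labels were checked against marker genes. The 11 naive markers summed to 924 and 934 FPKM in the 2iL libraries and to 74.4 and 72.6 FPKM at 48 h, and each of the 11 was called lower at 48 h. The 8 formative markers summed to 156 and 144 FPKM in 2iL and to 982 and 961 FPKM at 48 h, with 7 of the 8 called higher and Foxd3 not called. The 6 markers shared by both states summed to 1420 and 1428 FPKM in 2iL and to 1483 and 1431 FPKM at 48 h. Their members moved apart: Utf1, a chromatin-bound pluripotency factor, rose from 168 and 165 to 349 and 349 FPKM, and Lin28a, which binds let-7 precursors, rose from 110 and 99.6 to 237 and 232 FPKM, while Sox2 fell from 125 and 134 to 30.2 and 31.1 FPKM. Of the markers of other states, those of definitive endoderm summed to 0.96 to 2.34 FPKM with 0 of 5 reaching the threshold of a member, and those of primitive streak and mesoderm summed to 1.64 to 4.83 FPKM with Eomes as the 1 member of 9. The 6 markers of the 2-cell-like state summed to 1.68 to 2.76 FPKM, and none of them was a member.

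The 4 wild-type libraries summed to 533445 to 548453 FPKM, and 11415 to 11828 genes reached 1 FPKM in each. Replicates correlated at 0.991 in 2iL and 0.989 at 48 h across genes on the log2(FPKM + 1) scale. The number of reads per library is unknown. FPKM gives each transcript's share of a library, so in these bulk samples fewer cells of a type and less RNA per cell cannot be told apart. Differences below are log2 differences of FPKM + 1, 48 h minus 2iL, with the standard error (SE) from limma, and a gene was called at an adjusted p (Benjamini-Hochberg, 13172 genes tested) below 0.05.

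The exit from 2iL touched most of the measured transcriptome, but usually by little. Over all genes tested 56.5% were called, 30.9% higher and 25.6% lower, and every count of a gene group below should be read against these shares. Among the 12233 members, 3952 were called higher and 3214 lower. Of these, 1021 genes rose and 800 fell by 2-fold or more, and 40 rose and 68 fell by 8-fold or more. A member that reached 1 FPKM in only 1 of the groups had to differ, which applied to 753 members at 48 h and to 443 in 2iL. The 10526 members that reached 1 FPKM in all 4 libraries carry no such constraint; 3120 of them were called higher and 2710 lower, and 542 and 482 changed at least 2-fold. By level, 56.4% were called where the higher group lay below 5 FPKM and 57.0% of the 921 members where it lay at 100 FPKM or more. The first share includes members that reached 1 FPKM in only 1 group. Of such members 93.9% (2iL only) and 95.5% (48 h only) were called. The likeness of the 2 shares is thus partly set by the filter and says little about expression level. The median difference over all genes tested was 0.03.

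**Figure D1:**
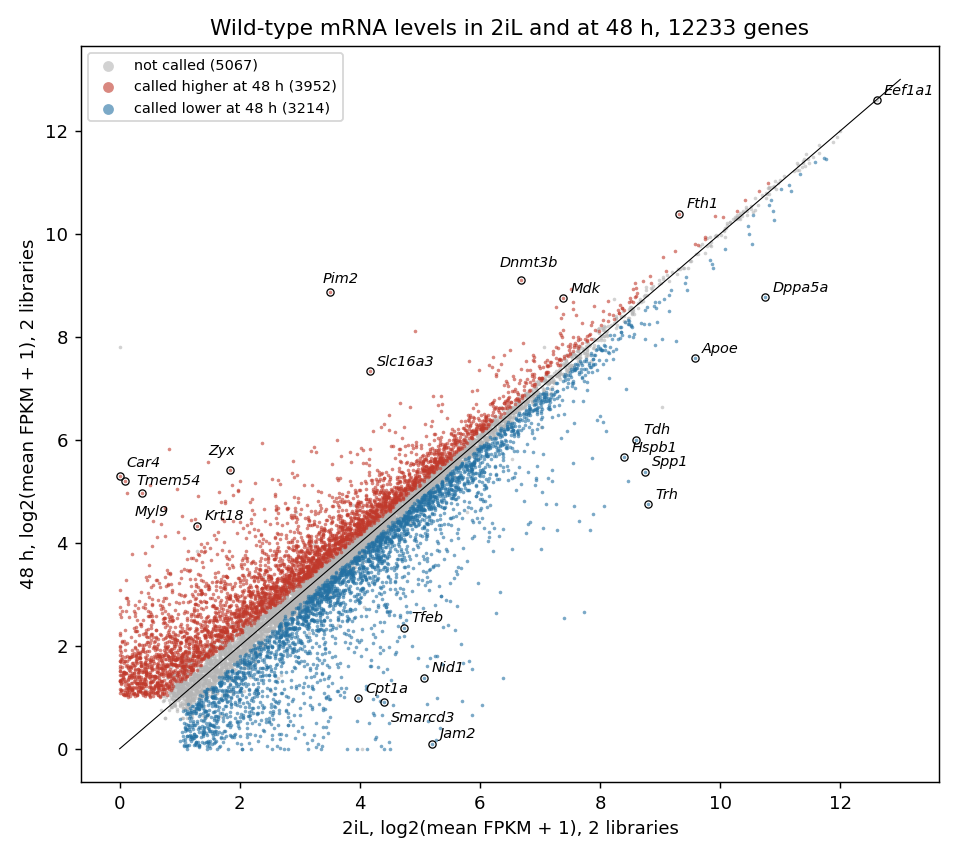
Mean level of each of the 12233 members in 2iL (horizontal axis) and at 48 h (vertical axis), each as log2(mean FPKM + 1) over 2 libraries. The 3952 members called higher lie above the diagonal and the 3214 called lower below it; Eef1a1, the most abundant, sits on the line, and Car4 and Jam2 sit at the edges where 1 group is near 0.

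Some of the steepest changes were close to switches. Car4, a membrane-anchored carbonic anhydrase, had a listed value of 0 in each 2iL library and measured 40.1 and 36.9 FPKM at 48 h. Tmem54, a membrane protein gene, went from 0.0672 and 0.0706 to 37.8 and 33.6 FPKM. Spon1, which encodes the secreted protein F-spondin, went from 0.00904 and 0.00954 to 5.58 and 5.88 FPKM. These 3, with Enpp2, the secreted enzyme that makes lysophosphatidic acid, Zfp608 and Fam131b, were the 6 members below 0.1 FPKM in both 2iL libraries and at 5 FPKM or more in both 48 h libraries.

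The opposite pattern was found for 8 members: Jam2, Pglyrp1, Crxos, Sh2d4b, Lrrc31, Prdm14, Srarp and Osm. Jam2, a junctional adhesion molecule, measured 34.9 and 36.7 FPKM in 2iL and 0.0966 and 0.0446 FPKM at 48 h. Pglyrp1, a secreted protein that binds bacterial peptidoglycan, measured 21.4 and 21.3 FPKM in 2iL and 0.0983 and 0.081 FPKM at 48 h. Crxos, a homeobox gene of the early embryo, measured 18.7 and 20.2 FPKM in 2iL and 0.0653 and 0 FPKM at 48 h. Osm, which encodes oncostatin M, a cytokine of the same family as LIF, measured 5.7 and 5.1 FPKM in 2iL and 0.0235 and 0 FPKM at 48 h.

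In absolute FPKM, the largest rise was that of Fth1, the heavy chain of the iron store ferritin, from 648 and 628 to 1350 and 1332 FPKM. Mdk, which encodes the heparin-binding growth factor midkine, rose from 158 and 174 to 426 and 432 FPKM, and Rian, a noncoding transcript of the imprinted Dlk1-Dio3 region, from 178 and 185 to 486 and 483 FPKM. Dppa5a, an RNA-binding protein gene typical of naive cells, showed the largest absolute fall, from 1739 and 1706 to 457 and 417 FPKM. Apoe, the lipid carrier apolipoprotein E, fell from 754 and 769 to 195 and 187 FPKM. Trh, which encodes the precursor of thyrotropin-releasing hormone, fell from 463 and 429 to 29.2 and 22.8 FPKM. The actin-binding peptide gene Tmsb10 fell from 1472 and 1500 to 929 and 845 FPKM, and the histone variant gene H2afz from 1436 and 1408 to 1013 and 1029 FPKM.

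Genes of the contractile actin cytoskeleton rose in most cases. The list held actin isoforms, myosins, tropomyosins, calponins and other targets of SRF, the transcription factor that reads the pool of free actin; 26 of its 28 genes were members, and 18 were called higher, 7 lower and 1 not, with a median difference of 0.98. Among the 22 at 1 FPKM or more in all 4 libraries, 14 were called higher and 7 lower. Myl9, the regulatory light chain of nonmuscle and smooth muscle myosin, measured 0.245 and 0.331 FPKM in 2iL and 31.8 and 28.8 FPKM at 48 h (log2 difference 4.60, SE 0.13, adjusted p = 3.2e-07). Zyx, which encodes the focal adhesion protein zyxin, measured 2.5 and 2.66 FPKM in 2iL and 39.8 and 44 FPKM at 48 h (3.58, SE 0.07, adjusted p = 1.0e-07). Tagln, the actin-bundling protein transgelin, measured 0.385 and 0.406 FPKM in 2iL and 9.02 and 9.38 FPKM at 48 h. For these genes each 48 h library lay above both 2iL libraries by more than an order of magnitude.

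Tpm2, a tropomyosin, rose from 4.68 and 4.89 to 36.6 and 37 FPKM, and the calponin Cnn2 from 8.39 and 8.91 to 51.4 and 55.9 FPKM. Srf itself rose from 12 and 11.1 to 29.6 and 30.9 FPKM (log2 difference 1.31, SE 0.06, adjusted p = 2.7e-06). Flnc, the actin crosslinker filamin C, was outside the list and rose from 0.481 and 0.47 to 20.3 and 20.5 FPKM. The members called lower were abundant isoforms and moved less: Tpm3 (-0.23), the alpha-actinin Actn1 (-0.46) and the calponin Cnn3 (-0.59). Ccn2, a secreted target of the YAP coactivator, fell by 0.73, whereas Ccn1, of the same family, rose by 1.12. The count of lower calls was 4 without 48 h replicate 2.

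Tagln and Acta2 are also markers of fibroblasts, so the fibroblast and feeder markers were read beside this result. Of 10 such markers 5 were members, with 4 called higher and 1 lower. Acta2 had a listed value of 0 in each 2iL library and of 2.58 and 1.93 FPKM at 48 h, Dcn was listed at 0 and then at 2.22 and 1.74 FPKM, and Thy1 rose from 2.23 and 2.6 to 9.2 and 9.26 FPKM. Of the fibrillar collagens, Col1a1 and Col3a1 stayed at or below 0.154 FPKM, and Col1a2 measured 0.0825 and 0 FPKM in 2iL and 0.465 and 0.197 FPKM at 48 h. Postn was listed at 0 in all 4 libraries. The summed level of the list was 351 to 362 FPKM in 2iL and 57.8 to 60.5 FPKM at 48 h, most of it Vim, the intermediate filament vimentin, which fell from 359 and 347 to 36.8 and 35.1 FPKM (log2 difference -3.26, SE 0.05). The part of these markers in the actomyosin result was not tested.

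The CArG box, the sequence bound by SRF, was searched on both strands in the 250 bases before the annotated start, in RefSeq promoters of build GRCm38.p6. An entry was found for 22 list members, and 5 of them (22.7%) held the motif, all 5 among the 17 called higher, against 0 of the 4 called lower. Over all 27025 genes with a promoter entry the share was 1.62%, and over the 9154 member genes with one it was 1.34%. A match is a description of the letters and not a binding site, and genes of this list are known for such boxes. The 3 printed are the members with a match that rose most, each 5' to 3' on the gene's strand, with the CArG boxes in capitals; Myl9 lies at chr2:156775214-156775463 (plus strand), Cnn2 at chr10:79988350-79988599 (plus strand) and Srf at chr17:46556163-46556412 (minus strand).
Myl9: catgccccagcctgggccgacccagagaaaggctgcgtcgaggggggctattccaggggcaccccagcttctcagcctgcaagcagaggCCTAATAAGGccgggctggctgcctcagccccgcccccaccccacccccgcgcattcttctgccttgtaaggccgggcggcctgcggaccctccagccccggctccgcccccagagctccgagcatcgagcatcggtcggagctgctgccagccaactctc
Cnn2: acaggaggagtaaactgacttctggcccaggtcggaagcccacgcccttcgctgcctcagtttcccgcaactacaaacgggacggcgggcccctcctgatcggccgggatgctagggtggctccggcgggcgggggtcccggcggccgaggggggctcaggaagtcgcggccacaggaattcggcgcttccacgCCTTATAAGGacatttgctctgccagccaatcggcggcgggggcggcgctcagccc
Srf: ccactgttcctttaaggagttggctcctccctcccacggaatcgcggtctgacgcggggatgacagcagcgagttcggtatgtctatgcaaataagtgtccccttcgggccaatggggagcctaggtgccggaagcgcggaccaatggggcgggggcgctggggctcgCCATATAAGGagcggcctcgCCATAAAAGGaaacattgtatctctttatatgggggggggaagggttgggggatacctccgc
In Myl9 the box starts 161 bases before the start of the transcript, in Cnn2 56 bases before it, and Srf holds 2 boxes, the nearer at 62 bases.

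Epithelial junction genes rose in most cases. Of 32 genes of tight and adherens junctions and their regulators 31 were members; 23 were called higher, 3 lower and 5 not, with a median difference of 0.75, and among the 28 at 1 FPKM or more throughout 21 were called higher and 2 lower. Claudins form the sealing strands of tight junctions. Cldn7 measured 2.11 and 2.17 FPKM in 2iL and 31.8 and 29.6 FPKM at 48 h (log2 difference 3.33, SE 0.19, adjusted p = 6.8e-06), and Cldn6 measured 8.58 and 7.53 FPKM in 2iL and 54.6 and 54 FPKM at 48 h (2.61, SE 0.10, adjusted p = 1.1e-06). Marveld3, a membrane protein of the tight junction, rose from 0.453 and 0.323 to 4.88 and 5.88 FPKM. The polarity scaffold Patj rose by 2.49, the related membrane proteins Marveld2 and Ocln by 1.56 and 1.33, and the apical determinant Crb3 by 1.19.

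Cdh1, which encodes E-cadherin, was already high at 156 and 149 FPKM in 2iL and reached 223 and 224 FPKM at 48 h. Epcam, an epithelial adhesion molecule, rose from 24.9 and 23.9 to 102 and 106 FPKM, and Esrp1, a splicing regulator of epithelial isoforms, from 8.85 and 7.59 to 34.4 and 33.5 FPKM. Cdh2, which encodes N-cadherin, measured 1.81 and 1.58 FPKM in 2iL and 2.21 and 2.21 FPKM at 48 h and was not called. The 3 members called lower were Jam2, described above, Ctnna1 (alpha-catenin, -0.37) and Cldn4 (-0.35). Among 9 members of the desmosome and keratin list 4 were called higher and 3 lower. Krt18 rose from 1.2 and 1.68 to 18.5 and 19.7 FPKM and its partner Krt8 from 5.6 and 5.79 to 11.7 and 10.5 FPKM, while the plaque proteins Jup (-0.76), Dsg2 (-0.57) and Dsp (-0.44) fell. Krt18 is also a marker of trophectoderm. The 7 trophectoderm markers summed to 20.9 and 21.3 FPKM in 2iL and to 20.8 and 22 FPKM at 48 h; Tfap2c fell from 18.9 and 18.3 to 1.19 and 0.897 FPKM, and Cdx2, Elf5 and Hand1 stayed at or below 0.338 FPKM. The keratin Krt7, of the same list, measured 0.115 and 0.411 FPKM in 2iL and 0.728 and 0.845 FPKM at 48 h. Their part in the keratin values was not tested.

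Integrins and basement membrane genes split. Of 27 listed genes 21 were members, with 7 called higher, 11 lower and 3 not and a median of -0.49; among the 17 at 1 FPKM or more throughout the counts were 6 and 9. The laminin-binding integrin chains rose: Itga3 from 2.87 and 2.93 to 31.3 and 31.2 FPKM (log2 difference 3.05, SE 0.06, adjusted p = 9.3e-08), and Itga6 from 27.5 and 26 to 57.9 and 59.5 FPKM. Itga5 and Itgav, chains of fibronectin and vitronectin receptors, fell (-0.49 and -0.72), and Itga9 fell by 1.85. Most matrix components fell. Nid1, the laminin and collagen linker nidogen, measured 33.4 and 31.6 FPKM in 2iL and 1.65 and 1.55 FPKM at 48 h. Fn1, fibronectin, measured 143 and 136 FPKM in 2iL and 36.7 and 38.1 FPKM at 48 h. Sparc, a collagen-binding matrix protein, measured 125 and 120 FPKM in 2iL and 43.2 and 44.5 FPKM at 48 h. Lamc1 fell from 70.4 and 66.1 to 24.7 and 25.3 FPKM and Nid2 from 62.1 and 57.4 to 23.7 and 23.4 FPKM.

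The exceptions among matrix genes were Lamb1, a laminin beta chain, which rose from 6.37 and 6.13 to 21.7 and 22.6 FPKM, and the basement membrane collagen Col4a1, which rose from 2.91 and 2.71 to 6.35 and 6.85 FPKM. Matrix genes of this kind are also strongly expressed by primitive endoderm. Of its 8 markers 2 were members, Lama1 lower and Dab2 higher, and Gata6, Sox17 and Pdgfra stayed at or below 0.114 FPKM in all 4 libraries. Gata4 measured 0.92 and 0.694 FPKM in 2iL and 0.377 and 0.311 FPKM at 48 h, and Sox7 measured 0.59 and 0.695 FPKM and then 0.0945 and 0.143 FPKM. The markers summed to 4.85 and 5.24 FPKM in 2iL and to 2.94 and 3.51 FPKM at 48 h, and their part in the matrix result was not tested.

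**Figure D2:**
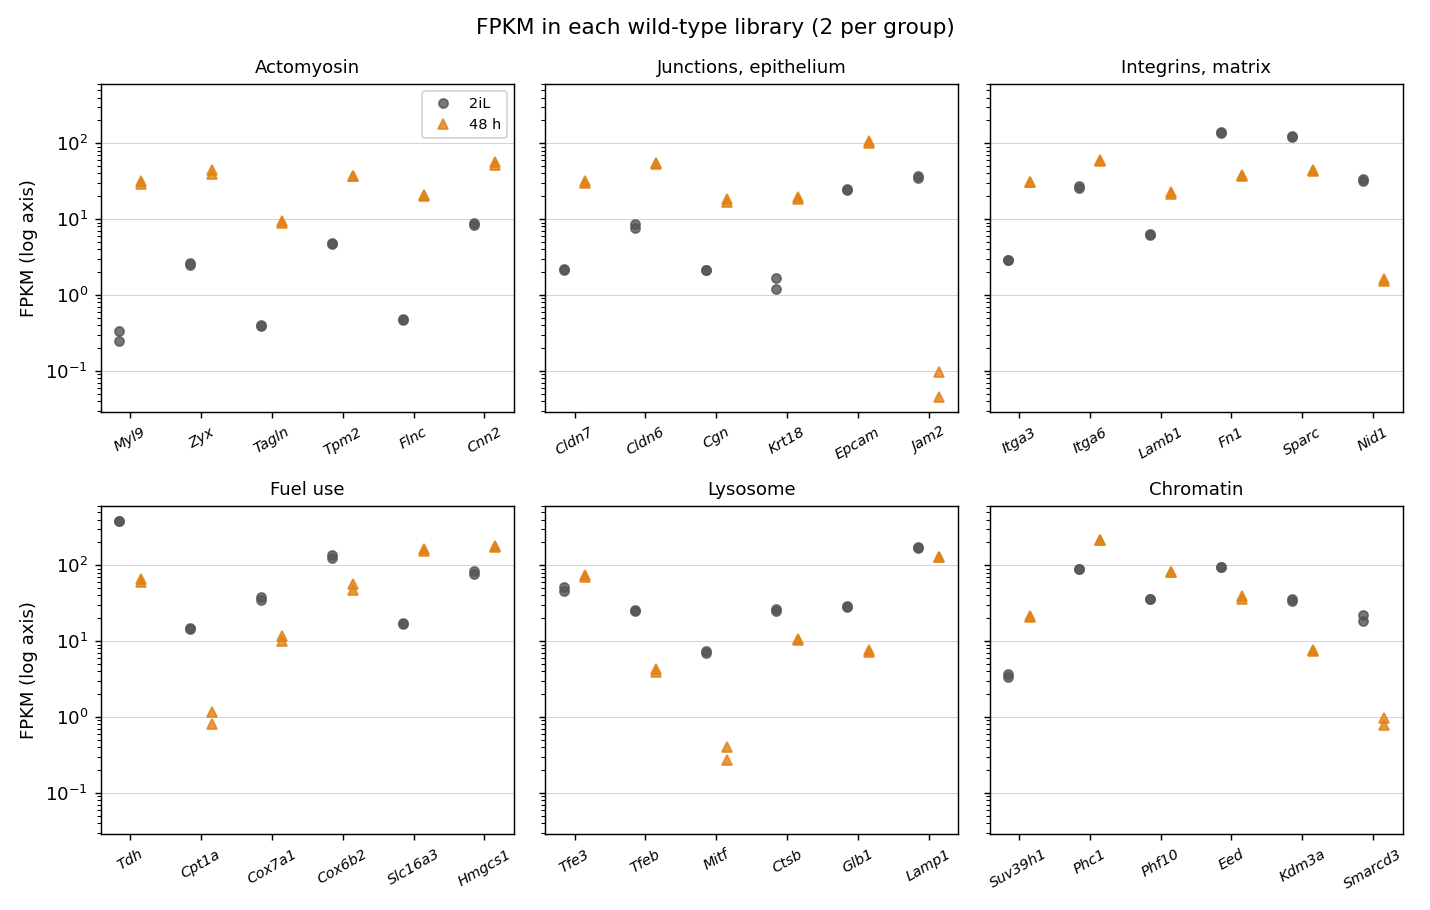
FPKM in each wild-type library, on a log axis, for 36 genes in 6 groups; grey circles are the 2 libraries in 2iL and orange triangles the 2 at 48 h. Replicates nearly coincide, from Myl9 at 0.245 and 0.331 FPKM in 2iL against 31.8 and 28.8 at 48 h to Lamp1 at 175 and 171 against 130 and 129.

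Energy metabolism genes shifted downwards on the mitochondrial side, by small amounts and in most complexes. Of 78 measured nuclear-encoded subunits of oxidative phosphorylation, the respiratory chain and ATP synthase that make most ATP in mitochondria, 49 were called lower, 2 higher and 27 not, and all 78 reached 1 FPKM in all 4 libraries. Their median difference was -0.28, against 0.03 over all genes tested, and the count of lower calls ranged from 41 to 57 over all alternatives, with 5 called higher after quantile scaling. By complex, calls lower numbered 16 of 36 for complex I, 4 of 4 for complex II, 6 of 9 for complex III, 9 of 12 for complex IV and 14 of 17 for ATP synthase. The 2 falls of at least 2-fold were both in complex IV. Cox7a1, the isoform of striated muscle, measured 35.2 and 38.7 FPKM in 2iL and 9.95 and 11.7 FPKM at 48 h (log2 difference -1.69, SE 0.09, adjusted p = 5.1e-06), and Cox6b2, known from testis, measured 126 and 138 FPKM in 2iL and 56.8 and 47.7 FPKM at 48 h (-1.33, SE 0.10, adjusted p = 2.7e-05). Summed over the 78 subunits, levels were 17811 and 17858 FPKM in 2iL and 14696 and 14500 FPKM at 48 h.

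Transcripts of the mitochondrial genome pointed the same way, with 6 of 13 called lower, 0 higher and a median of -0.25. The most abundant, mt-Co1, fell from 3504 and 3439 to 2766 and 2829 FPKM. Of 20 enzymes of the TCA cycle and pyruvate entry 8 were called lower and 3 higher, or 6 higher after quantile scaling. The NADP-dependent mitochondrial isocitrate dehydrogenase Idh2 fell from 68.2 and 71.2 to 28.4 and 30 FPKM, while Suclg2, a succinate-CoA ligase subunit, rose from 27.4 and 28.2 to 45.7 and 46.2 FPKM.

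Fatty acid oxidation genes were divided, with 8 of 18 members called lower, 2 higher and 8 not. Cpt1a, the rate-limiting carnitine palmitoyltransferase, measured 14.8 and 14.5 FPKM in 2iL and 1.16 and 0.807 FPKM at 48 h (log2 difference -2.99, SE 0.09, adjusted p = 3.8e-07). Slc25a20, the carnitine carrier that follows it, fell from 18 and 19.6 to 5.92 and 5.95 FPKM, and Acadm, the medium-chain dehydrogenase, from 59.9 and 60.3 to 30 and 28.1 FPKM. Cpt2, the transferase on the inner membrane, went the other way, from 4.36 and 4.31 to 10.3 and 11.6 FPKM, as did the long-chain dehydrogenase Acadl (1.08).

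Genes of cholesterol synthesis rose in most cases. Of 22 listed genes 21 were members, all at 1 FPKM or more throughout, and 14 were called higher, 2 lower and 5 not, with a median of 0.54. Hmgcs1, the synthase at the head of the mevalonate pathway, measured 84.2 and 77.2 FPKM in 2iL and 178 and 176 FPKM at 48 h (log2 difference 1.12, SE 0.05, adjusted p = 2.9e-06). Fdps, which makes farnesyl diphosphate, rose from 165 and 158 to 337 and 321 FPKM. The exceptions were Insig1, the sterol sensor that retains SREBP in the endoplasmic reticulum (-0.52), and Ebp, the sterol isomerase, which fell from 45.9 and 46.5 to 9.17 and 8.64 FPKM. Genes of fatty acid synthesis showed no common direction, with 5 of 13 called higher and 5 lower: Acaca (0.66) and Fasn (0.45), which build the chain, rose, and the desaturases Scd1 (-0.44) and Scd2 (-0.59) fell with Srebf1 (-0.65), the SREBP isoform of lipogenesis. The core of the sterol regulatory element (CACCCCAC, both strands) was found before the start of 1 of 15 list members with a promoter entry, Hmgcs1, and in 2.98% of all genes with one.

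Threonine and serine metabolism changed in opposite ways. Tdh, the threonine dehydrogenase known for feeding the metabolism of mouse embryonic stem cells, measured 388 and 386 FPKM in 2iL and 66.2 and 60.2 FPKM at 48 h (log2 difference -2.60, SE 0.06, adjusted p = 1.5e-07). Its partner Gcat fell by 0.50. The enzymes of serine synthesis rose, Phgdh by 0.64, Psat1 by 0.43 and Psph by 0.54, and the mitochondrial folate enzyme Mthfd2 rose from 67.6 and 77.8 to 168 and 170 FPKM. Across the list 8 of 19 members were called higher and 7 lower. Sugar and lactate carriers were among the 175 measured genes whose symbols begin like those of solute carriers. Of these, 67 were called higher and 54 lower, and among the 144 at 1 FPKM or more throughout 47 and 50. Slc16a3, the lactate exporter of glycolytic cells, rose from 16.6 and 17.2 to 156 and 165 FPKM (log2 difference 3.17, SE 0.05), Slc2a1, the glucose transporter GLUT1, rose from 75.3 and 71.8 to 192 and 198 FPKM, and Slc2a3, the high-affinity transporter GLUT3, fell from 113 and 107 to 19.1 and 19.9 FPKM.

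Lysosomal genes fell in the main. The list held hydrolases, membrane proteins and the MiT/TFE transcription factors that drive them; 28 of 29 genes were members, and 17 were called lower, 6 higher and 5 not, with a median of -0.28. Among the 27 at 1 FPKM or more throughout, 16 were called lower and 6 higher. The factors themselves diverged. Tfe3, known for leaving the nucleus as cells exit the naive state, measured 51 and 46.4 FPKM in 2iL and 74.2 and 71.1 FPKM at 48 h (log2 difference 0.57, SE 0.05, adjusted p = 9.8e-05). Tfeb measured 25.3 and 25.9 FPKM in 2iL and 3.92 and 4.29 FPKM at 48 h (-2.38, SE 0.07, adjusted p = 2.8e-07), and Mitf measured 7.02 and 7.36 FPKM in 2iL and 0.4 and 0.274 FPKM at 48 h (-2.62, SE 0.09, adjusted p = 6.0e-07). On the FPKM scale Tfe3 was the higher of these factors in every library, and at 48 h it exceeded Tfeb by more than an order of magnitude.

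The beta-galactosidase Glb1 fell from 27.8 and 28.9 to 7.18 and 7.64 FPKM. Npc2, which carries cholesterol out of the lysosome, fell by 1.37, as did the protease genes Ctsa (-1.28) and Ctsb (-1.21) and the abundant membrane protein Lamp1 (-0.42). Beside Tfe3, the genes called higher included Gabarapl1, an autophagosome protein (1.14), the protease Ctsl (0.43), the channel Mcoln1 (0.34) and the sialidase Neu1 (0.33). The calls of Mcoln1 and Neu1 were lost under some alternatives.

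The core of the CLEAR element bound by MiT/TFE factors (TCACGTG, both strands, where matches on the 2 strands can overlap) was present before the start of 6 of 22 list members with a promoter entry, or 27.3%. It was present in 5 of the 13 called lower (38.5%) and in 1 of the 5 called higher (Mcoln1), against 3.58% of all genes and 6.03% of member genes with an entry. The core contains the general E-box CACGTG, which other factors of the same class also bind. The 3 printed are the members with a match that fell most, with matches in capitals; Glb1 lies at chr9:114400828-114401077, Ctsa at chr2:164833523-164833772 and Lamp1 at chr8:13158911-13159160, all on the plus strand of GRCm38.p6.
Glb1: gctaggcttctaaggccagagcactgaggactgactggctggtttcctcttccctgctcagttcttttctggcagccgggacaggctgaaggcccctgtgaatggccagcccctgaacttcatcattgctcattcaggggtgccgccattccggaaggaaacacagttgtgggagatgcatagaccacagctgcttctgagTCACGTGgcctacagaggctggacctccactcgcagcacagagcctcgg
Ctsa: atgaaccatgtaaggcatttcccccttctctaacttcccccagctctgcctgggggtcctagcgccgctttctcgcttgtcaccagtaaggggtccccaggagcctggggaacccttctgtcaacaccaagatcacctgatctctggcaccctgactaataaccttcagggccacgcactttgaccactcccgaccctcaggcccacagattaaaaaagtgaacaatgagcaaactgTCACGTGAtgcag
Lamp1: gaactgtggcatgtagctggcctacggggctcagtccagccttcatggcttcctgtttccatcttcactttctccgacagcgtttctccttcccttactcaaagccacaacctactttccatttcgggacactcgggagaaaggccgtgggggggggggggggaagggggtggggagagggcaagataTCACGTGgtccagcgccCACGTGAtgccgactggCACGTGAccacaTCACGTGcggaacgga
Glb1 holds 1 match, Ctsa 2 that overlap and Lamp1 4.

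Stress-related lists differed from each other. Of 16 members of the ATF4 amino acid response, the programme induced when amino acids run short, 12 were called higher and 2 lower, with a median of 0.57; 11 and 2 were so called among the 15 at 1 FPKM or more throughout. Ddit4, an inhibitor of mTORC1, rose from 27.2 and 27.9 to 89 and 107 FPKM, Chac1, a glutathione-degrading enzyme, from 14 and 16.6 to 55.4 and 57.2 FPKM, and Atf4 itself from 200 and 215 to 304 and 313 FPKM. Asns, asparagine synthetase, fell from 265 and 279 to 178 and 193 FPKM, and Ddit3, the factor CHOP, was not called at 14.5 and 13.5 FPKM in 2iL and 15.6 and 16.9 FPKM at 48 h. Phgdh, Psat1 and Slc7a11 are shared with the metabolic lists. Chaperones of the endoplasmic reticulum showed 5 of 16 called higher and 5 lower, with 3 higher without any 1 of 3 libraries (2iL replicate 2 or either 48 h replicate), and of 16 cytosolic and mitochondrial chaperones 10 were not called. The exception in size was the small heat shock protein Hspb1, which fell from 331 and 342 to 48.9 and 50.7 FPKM (log2 difference -2.73, SE 0.05, adjusted p = 8.3e-08).

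Iron handling genes moved in both directions. Beside the rise of Fth1, the exporter Slc40a1 (ferroportin) rose by 1.37 and the carrier Slc39a14 by 1.32, while the transferrin receptor Tfrc fell from 71.7 and 74.9 to 34.6 and 35.7 FPKM (log2 difference -1.04, SE 0.05, adjusted p = 3.0e-06). Over the list 4 of 9 members were called higher and 4 lower, and 2 lower without 2iL replicate 1 or without 48 h replicate 1. The metallothionein Mt1, which binds zinc and copper, fell from 1874 and 1929 to 1231 and 1232 FPKM, Mt2 fell by 0.36, and Mt3 rose from 7.32 and 9.57 to 58.2 and 55.9 FPKM. In glutathione metabolism the 2 subunits of glutamate-cysteine ligase rose, Gclc by 0.87 and Gclm by 1.09, together with haem oxygenase Hmox1 (1.05), and the next enzyme, glutathione synthetase Gss, fell from 24.2 and 26.3 to 6.59 and 7.78 FPKM.

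Genes that respond to hypoxia did not share a direction, with 8 of 15 members called higher and 4 lower. The angiogenic factor Vegfa rose from 10.9 and 11.6 to 34.3 and 39.9 FPKM and Hif1a by 0.50, whereas Epas1, the paralogous factor HIF-2 alpha, fell from 7.03 and 6.75 to 1.3 and 1.4 FPKM and Ndrg1 from 12.2 and 10.4 to 1.23 and 1.14 FPKM. Of 20 apoptosis regulators 7 were called higher and 6 lower, with a median of 0.05. These counts lie near the shares over all genes tested, 30.9% higher and 25.6% lower. Some of the lower calls were lost without 48 h replicate 2. Of the 7 rises 5 were of killers of the BH3-only class: Pmaip1, which encodes NOXA, measured 4.74 and 3.56 FPKM in 2iL and 58.4 and 63 FPKM at 48 h (log2 difference 3.59, SE 0.11, adjusted p = 3.8e-07), and Bcl2l11, which encodes BIM, measured 3.6 and 4.43 FPKM in 2iL and 16.1 and 14.6 FPKM at 48 h. Bmf, Bik and Bbc3 rose by 1.00, 0.96 and 0.70. Bad and Bid, of the same BH3-only class, fell (-0.86 and -0.47), as did the effector Bak1 (-0.34). The protector Mcl1 was not called at 76.7 and 70.2 FPKM in 2iL and 64.1 and 69.6 FPKM at 48 h, nor was Bcl2l1 at 21.1 and 18.1 and then 21.9 and 19.7 FPKM.

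**Figure D3:**
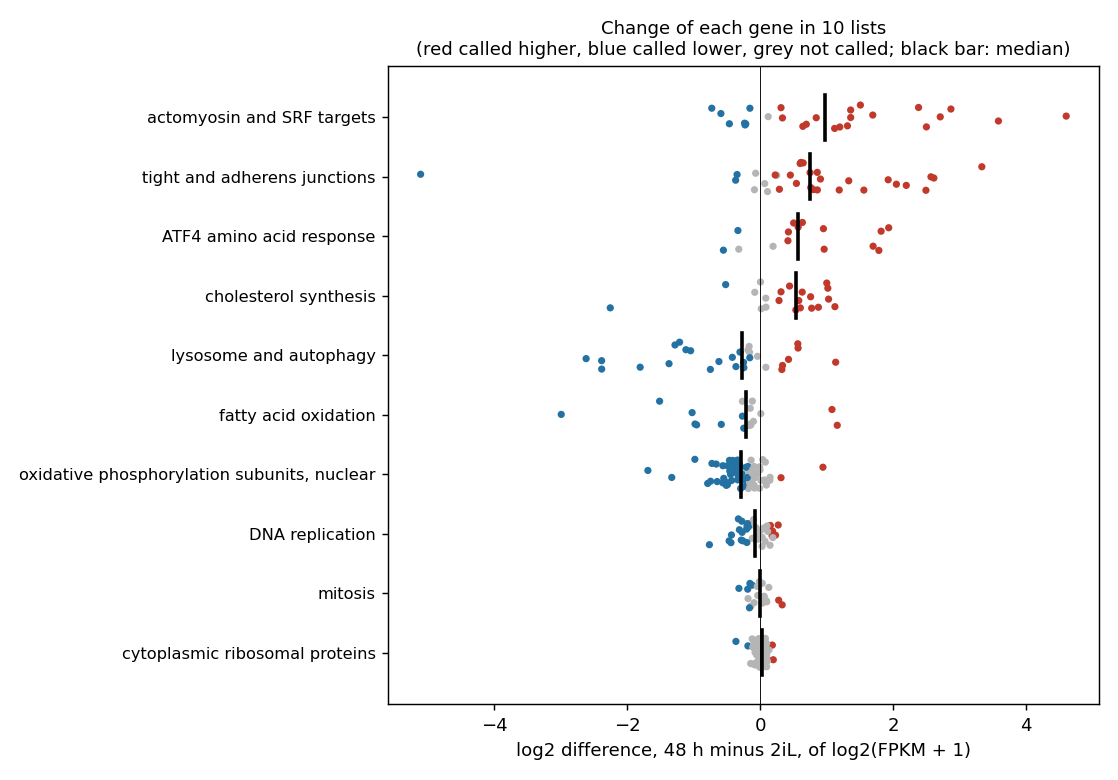
Log2 difference (48 h minus 2iL) of every measured gene in 10 lists, red where called higher, blue where called lower, grey where not called; the black bar is the list's median. Actomyosin genes reach 4.60 (Myl9) around a median of 0.98, oxidative phosphorylation subunits crowd just below 0 around -0.28, and cytoplasmic ribosomal proteins stay close to 0 around 0.03.

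Within most signalling families some members rose and others fell. Among FGF genes, 9 of 16 were members and 5 were called higher and 3 lower. Of the 5 at 1 FPKM or more throughout, 2 were called higher and 2 lower. Fgf4, the autocrine ligand of naive cells, fell from 67.2 and 67.7 to 32.7 and 31.8 FPKM, Fgf5 rose from 0.117 and 0.123 to 5.21 and 4.51 FPKM and Fgf15 from 0.299 and 0.21 to 3.95 and 3.34 FPKM. The receptors Fgfr1 and Fgfr2 rose by 0.66 and 1.54. In the BMP pathway 3 of 12 members were called higher and 6 lower. Among the 8 at 1 FPKM or more throughout, 3 were called higher and 3 lower. The ligand Bmp4 fell from 10.8 and 9.47 to 0.406 and 0.502 FPKM (log2 difference -2.94, SE 0.13, adjusted p = 2.6e-06), and its targets Id1 (-2.08) and Id3 (-2.10) fell with the inhibitor Smad7 (-1.79). Id2, of the same family, rose from 1.29 and 1.26 to 8.71 and 7.15 FPKM, and the receptors Bmpr1a and Bmpr2 rose by 0.35 and 0.44.

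Of 16 members of the Notch pathway 9 were called higher and 5 lower. Among the 13 at 1 FPKM or more throughout, 7 were called higher and 4 lower. Its ligands went both ways. Dll1 rose from 0.529 and 0.766 to 7.24 and 5.41 FPKM and Dll3 from 0.687 and 0.683 to 5.66 and 5.1 FPKM. Both lay below 1 FPKM in each 2iL library, so as members they had to rise. Jag2 rose by 1.46, while Jag1 fell from 7.99 and 6.8 to 2.12 and 1.94 FPKM. The target Hes1 (-1.09) and the nuclear effector Rbpj (-0.81) fell, and Hes6, which opposes Hes1, rose from 13.7 and 9.99 to 49.4 and 51.5 FPKM. Among ephrins and Eph receptors all 15 members were called, 8 higher and 7 lower. Of the 9 at 1 FPKM or more throughout, 4 were called higher and 5 lower. Epha1 rose from 1.31 and 0.811 to 22.3 and 21.4 FPKM and Efnb2 from 1.75 and 1.57 to 14.6 and 13.8 FPKM, and Epha4 fell from 6.95 and 5.82 to 0.386 and 0.356 FPKM and Epha2 from 23.9 and 22.1 to 8.58 and 8.37 FPKM. For retinoic acid, the synthesising enzyme Aldh1a2 fell from 3.92 and 2.96 to 0.495 and 0.623 FPKM, and among receptors Rarg rose from 37.6 and 33.4 to 74.3 and 77.3 FPKM while Rara fell from 21.6 and 19.9 to 9.85 and 10.3 FPKM. Rxrg rose from 0.0841 and 0.118 to 6.42 and 6.26 FPKM.

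Transcription factor families also divided between members. In the SOX family 6 of 10 members were called higher and 3 lower. Sox3, which is close in sequence to Sox2, rose from 2.99 and 2.39 to 28.5 and 30.1 FPKM (log2 difference 3.04, SE 0.10, adjusted p = 4.7e-07), so that at 48 h it lay next to Sox2 at 30.2 and 31.1 FPKM, compared with 125 and 134 FPKM of Sox2 in 2iL. Sox4 and Sox11 rose by 1.66 and 1.21 and Sox15 fell by 1.97. Sox1, of the same subgroup, is a marker of neuroectoderm and measured 1.08 and 1.05 FPKM in 2iL and 1.97 and 2.5 FPKM at 48 h. The 7 neuroectoderm markers summed to 11.5 and 11 FPKM in 2iL and to 28.4 and 27.8 FPKM at 48 h, most of it Nes, the intermediate filament nestin, at 22 and 21.6 FPKM at 48 h. Of the 4 that were members 3 were called higher and 1, Pax6, lower, a call lost under some alternatives. Neurod1 measured 1.39 and 0.918 FPKM in 2iL and 2.17 and 2.21 FPKM at 48 h, and Hes5 measured 0.0992 and 0.104 FPKM and then 0.405 and 0.445 FPKM. The part of these markers in the SOX values was not tested.

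Of 19 forkhead members 11 were called higher and 2 lower, led by Foxi3, which rose from 2.43 and 1.61 to 14.9 and 16.6 FPKM, with Foxp1 rising by 1.29 and Foxp4 falling (-0.87). The zinc finger genes Zic2 and Zic5 rose by 0.64 and 1.04. Of the 39 HOX genes 2 were members, Hoxc12 and Hoxc13, at 1.04 to 1.78 FPKM in 2iL and at or below 0.0711 FPKM at 48 h. Numbered Zfp zinc fingers, the largest family with 307 of 374 measured, counted 67 called higher, 85 lower and 155 not called. Their largest falls included Zfp296, an interactor of the naive network, from 49.6 and 46.2 to 6.04 and 5.59 FPKM, and Zfp57, which keeps methylation at imprinted regions, from 236 and 229 to 46.9 and 51.6 FPKM (log2 difference -2.22, SE 0.05, adjusted p = 1.5e-07). In the MYC network 4 of 10 members were called higher and 5 lower. The largest change was that of Mxd4, a MAX partner that opposes MYC, which rose by 1.14. Myc, Mycl and Mycn rose by 0.75, 0.52 and 0.30, from 8.14 and 7.83 to 13.2 and 15.1 FPKM for Myc and from 61.3 and 59 to 74.4 and 74.2 FPKM for Mycn. Mga (-0.36), Mlx (-0.36) and Mxi1 (-0.49), of the same network, fell. Immediate early genes split, with 5 of 12 called higher and 5 lower. Among the 9 at 1 FPKM or more throughout, 2 were called higher and 5 lower. Atf3, Jun and Egr1 rose by 1.91, 1.62 and 1.39, and Nr4a1 (-0.74) and Junb (-0.60) fell.

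Chromatin regulators are described by subunit. Of 28 Polycomb members 8 were called higher and 9 lower, with a median of -0.02. These counts lie near the shares over all genes tested, 30.9% higher and 25.6% lower. In the complex that methylates histone H3 at lysine 27, Eed fell from 93.7 and 94.1 to 39.9 and 35.8 FPKM (log2 difference -1.29, SE 0.06, adjusted p = 2.1e-06). Suz12 (-0.59) and the accessory subunits Epop (-1.05) and Mtf2 (-0.76) also fell, while Phf19, another accessory subunit, was called higher. The enzyme Ezh2 was not called at 76.1 and 68.1 FPKM in 2iL and 64 and 64.3 FPKM at 48 h. In the ubiquitin ligase complex Phc1 rose from 89.7 and 89.2 to 212 and 213 FPKM and Phc2 by 1.03, and Cbx7 (-0.38) and Rnf2 (-0.31) fell. Among BAF remodellers 13 of 21 members were called higher and 2 lower (4 lower after median-ratio scaling), with Phf10 and Arid2 rising by 1.17 and 1.14. The exception was Smarcd3, a variant subunit, which fell from 18.4 and 21.8 to 0.967 and 0.778 FPKM (-3.49, SE 0.16, adjusted p = 2.8e-06).

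Histone methyltransferases and demethylases were called higher in 12 and lower in 7 of 30 cases. Suv39h1, which trimethylates histone H3 at lysine 9, rose from 3.7 and 3.39 to 21.1 and 21.2 FPKM (log2 difference 2.28, SE 0.07, adjusted p = 4.2e-07) and its paralog Suv39h2 by 0.56, while Kdm3a and Kdm3b, which remove methyl groups from the same residue, fell (-2.08 and -0.71). Kdm3a measured 35.6 and 33.8 FPKM in 2iL and 7.33 and 7.57 FPKM at 48 h.

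Class I antigen presentation and interferon genes moved apart. H2-K1 rose from 5.35 and 7.24 to 39.6 and 40 FPKM, H2-D1 by 1.56, the peptide transporter Tap1 from 0.328 and 0.224 to 4.76 and 3.72 FPKM and beta-2-microglobulin B2m by 0.84. Irf1 and Irf9, which transmit interferon signals, fell (-1.06 and -1.52), and the membrane proteins Ifitm1 (-1.56), Ifitm2 (-1.08) and Ifitm3 (-1.45) fell, Ifitm3 from 335 and 355 to 125 and 127 FPKM. Over the list 6 of 15 members were called higher and 8 lower. Among the 13 at 1 FPKM or more throughout, 4 were called higher and 8 lower. Tap1 lay below 1 FPKM in each 2iL library, so as a member it had to rise. Class I genes and the Ifitm genes have close copies in the genome, and how the authors' counting divided shared reads is not given in the sources used here.

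Among the lists with 8 or more members, calls were rarest for the ribosome. Of 78 cytoplasmic ribosomal protein genes 74 were not called, and the median difference was 0.03. Their summed level was 131850 and 133998 FPKM in 2iL and 135907 and 131692 FPKM at 48 h, with overlapping groups. Eef1a1, the elongation factor that led the table, measured 6225 and 6247 FPKM in 2iL and 6252 and 6164 FPKM at 48 h. Of the 4 called genes Rps20 changed most and fell from 1076 and 1078 to 868 and 807 FPKM (log2 difference -0.36). This count depends on the scaling and on single libraries: after quantile scaling 28 of the 78 were called higher and 7 lower, after median-ratio scaling 12 were called lower, and without any 1 of the 4 wild-type libraries 0 were called higher and 1 lower. Many ribosomal protein genes have pseudogene copies that could share their reads.

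Of 37 proteasome subunits 25 were not called; 9 were called lower, or 4 without 2iL replicate 1 or without 48 h replicate 2 and 15 after median-ratio scaling. The 3 called higher were 7 after quantile scaling. Psma8, a subunit known from testis, fell from 17.8 and 17.8 to 7.7 and 8.58 FPKM, and Psmb9, of the immunoproteasome, rose by 1.34. Of 22 mitosis genes 15 were not called. The mitotic kinase Plk1 (0.33) and the proliferation marker Mki67 (0.28) were the 2 called higher, and the 5 called lower were 1 without 2iL replicate 2 or without 48 h replicate 2. DNA replication genes leaned lower, with 15 of 39 called lower and 5 higher, but with a median of -0.07; without 48 h replicate 2 the counts were 9 and 2. Orc1, of the origin recognition complex, fell from 32.3 and 32.9 to 19 and 18.7 FPKM, and the helicase subunit Mcm3 from 160 and 156 to 116 and 112 FPKM. Splicing regulators leaned the other way, with 22 of 48 called higher and 7 lower, or 3 lower without 2iL replicate 1 or without 48 h replicate 1 and 13 lower after median-ratio scaling. Beside Esrp1, Ptbp2 rose from 7.69 and 7.63 to 16 and 17 FPKM, while the paralog Ptbp1 was not called at 353 and 325 FPKM in 2iL and 309 and 311 FPKM at 48 h.

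**Figure D4:**
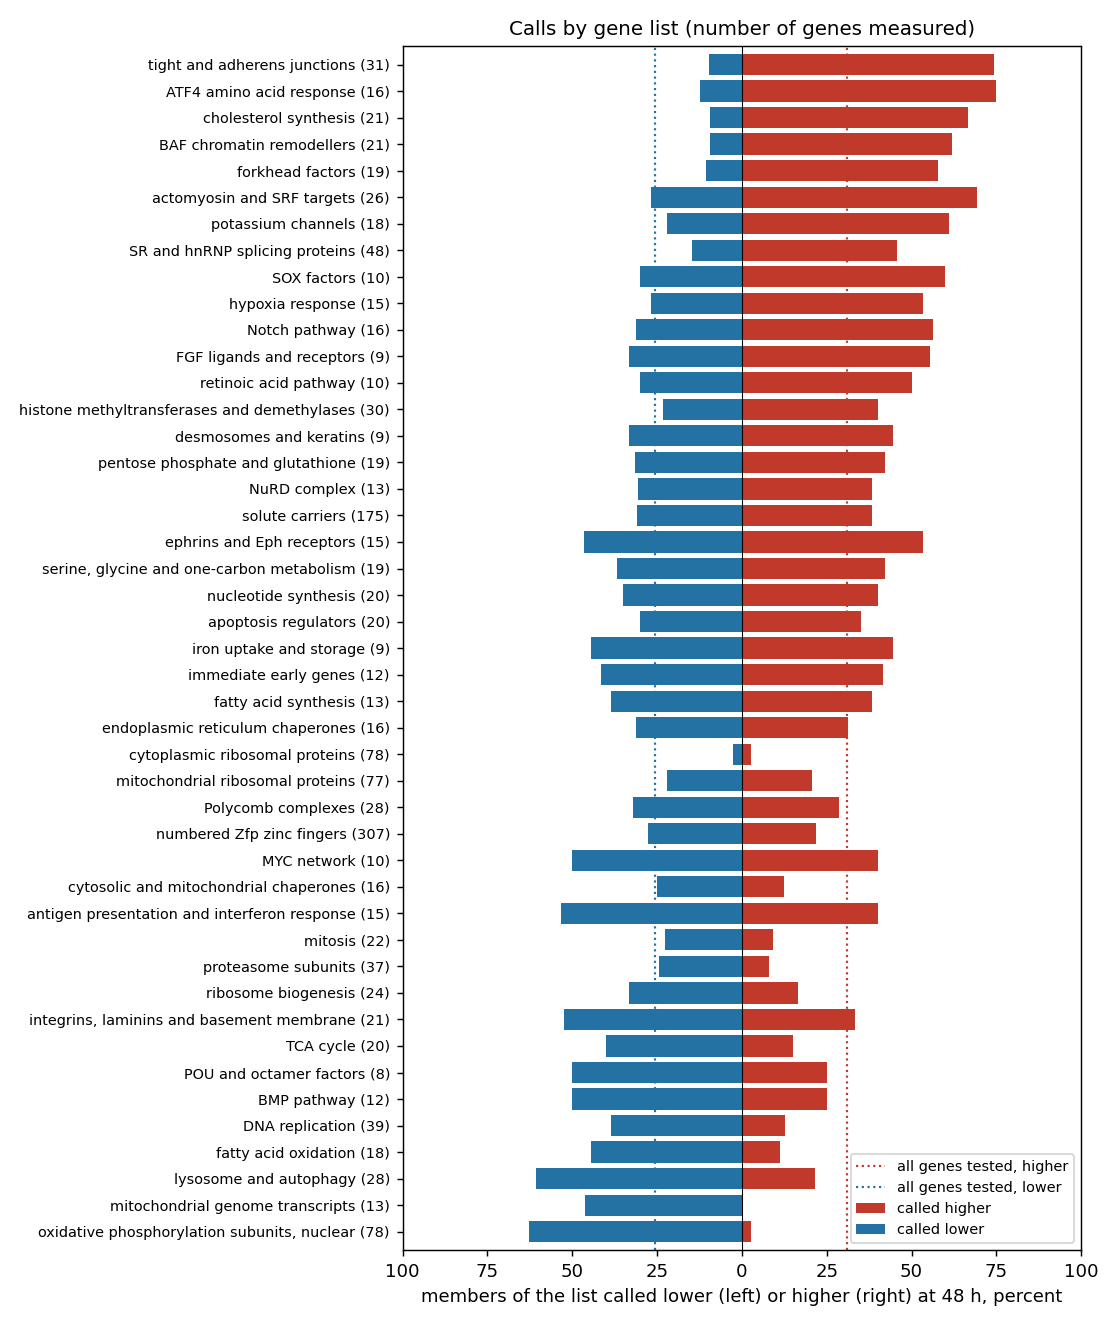
Share of each gene list called higher (right, red) or lower (left, blue) at 48 h, in percent of its measured genes, for lists of 8 or more; dotted lines mark the shares over all genes tested, 30.9% higher and 25.6% lower. Junction and ATF4 genes stand at the top, oxidative phosphorylation, with 49 of 78 lower, at the bottom, and cytoplasmic ribosomal proteins have almost no bar.

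The same change of medium was given to the Dgcr8-/- line, which lacks the RNA-binding partner of Drosha that most miRNAs need, and the difference between the 2 changes was tested as an interaction. Dgcr8 itself measured 18.3 and 19.2 FPKM in wild-type cells in 2iL and 20.7 and 20.9 FPKM at 48 h, against 9.11 and 9.33 FPKM and then 7.84 and 7.80 FPKM in the knockout line, so a transcript signal remained, and FPKM per gene cannot say from which exons. Over all genes tested 42.8% were called for the difference, and 5216 of the 12233 members were. Among the 1021 members that rose at least 2-fold in wild-type cells 806 (78.9%) were called for the difference. Of these, 607 rose less in the knockout line, 136 had a knockout change of the opposite sign or none, and 63 rose more. The knockout change itself, often small, did not have to be called. The median change of the 1021 was 1.41 in wild-type and 0.54 in knockout cells. Among the 800 that fell at least 2-fold 656 (82.0%) were called for the difference. Of these, 428 fell less, 193 had a knockout change of the opposite sign or none, and 35 fell more. Medians over the 800 members were -1.52 in wild-type and -0.54 in knockout cells. Those members were picked for a large change in wild-type cells, so a smaller change elsewhere is partly set by that choice. With 1 line per genotype, genotype and line cannot be told apart.

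By gene group, the difference was called for 20 of 26 actomyosin members and 24 of 31 junction members, for 13 of 78 oxidative phosphorylation subunits and for 8 of 78 cytoplasmic ribosomal proteins. Myl9 measured 1.27 and 0.916 FPKM at 48 h in the knockout line, against 31.8 and 28.8 FPKM in wild-type cells. The 48 h difference of Srf was 0.10 in knockout and 1.31 in wild-type cells (difference of the 2 values 1.22, adjusted p = 6.0e-05), and Cald1, the actin regulator caldesmon, rose more in the knockout line (2.80 against 1.36, adjusted p = 2.9e-05). Vim fell by 3.26 in wild-type cells and by 0.27 in the knockout line. In the lysosome list the difference was called for 14 of 28 members.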

How the data were processed

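Messenger RNA of wild-type and Dgcr8-/- embryonic stem cells was measured in 8 libraries, 2 per group. The authors deposited 1 table of FPKM values per gene, made with STAR 2.5.0, Cufflinks 2.2.1 and build mm10, per the submitters' processing notes. Libraries were made with a dUTP protocol, per the labels' protocols, and the labels name both total and polyA RNA. The annotation, the strand setting and the reads per library are not given in the sources used here, so overlapping genes and close copies are uncertain. Of 41258 entries, 40071 identifiers were matched to a symbol, and the 56 repeated rows were kept apart. Entries at or above 1 FPKM in 2 or more of 8 libraries (13172) were fitted as log2(FPKM + 1), with a pseudocount of 1, in limma 3.58.1 (R 4.3.3), with 4 group means, an intensity trend and Benjamini-Hochberg adjustment. A fold on this scale understates the change of low genes. The median SE was 0.0882, and the residual degrees of freedom were 4. The method was tested on simulated data. Genes were named by size of change, of level and of genotype difference, and by up to 4 called genes per direction and list, plus genes whose role needed naming. The comparison, the members and the gene lists were chosen with earlier results of these data known, and some lists share genes. Alternatives were another pseudocount, 2 other filters and no filter, 2 scalings, wild-type libraries alone, no trend, a replicate block and each wild-type library left out. The small RNA table was not used here, and some genes are not reported here.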

Additional observations from a re-analysis of the deposited data

Results flagged for a closer look

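The change from 2iL to 48 h differed between genotypes for 5216 of the 12233 members by the interaction test in limma. Over all genes tested the share was 42.8%, so the count is not particular to the members. Each genotype was 1 line, so genotype and line cannot be told apart. The differences given next are the wild-type change minus the knockout change on the log2(FPKM + 1) scale, for genes with the largest differences in each direction among those that changed at least 2-fold in wild-type cells.

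The positive differences were 5.14 for H2-Bl, 4.86 for Car4, 4.74 for Tmem54, 3.95 for Tmem181a, 3.87 for Myl9 and 3.64 for Tmem181b-ps. H2-Bl, a class I histocompatibility gene, rose in wild-type cells from 2.95 and 5.2 to 10.4 and 9.83 FPKM and fell in the knockout line from 58.9 and 62.2 to 2.91 and 2.95 FPKM. Tmem181a rose from 1.19 and 1.15 to 4.83 and 4.54 FPKM in wild-type cells and fell from 13.5 and 13.7 to 1.62 and 1.35 FPKM in the knockout line. H2-Bl, Tmem181a and Tmem181b-ps have close copies, so their reads may be shared. Car4 stayed at or below 0.587 FPKM in every knockout library.

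The negative differences were -5.08 for Tgm1, -4.72 for Aire, -4.51 for Efhd1, -4.33 for Notum and -4.17 for Cyp2s1. Tgm1, a transglutaminase of epithelia, fell in wild-type cells from 21.6 and 22.1 to 1.4 and 1.67 FPKM and rose in the knockout line from 0.944 and 1.26 to 6.44 and 7.29 FPKM. Aire, the autoimmune regulator, fell from 8.48 and 9.78 to 1.53 and 1.53 FPKM and rose in the knockout line from 1.88 and 1.84 to 17.9 and 17.9 FPKM. Notum, which inactivates WNT proteins, fell in wild-type cells from 49.9 and 52 to 1.14 and 0.682 FPKM, against 221 and 236 to 177 and 159 FPKM in the knockout line.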

How the results depend on the processing

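No call of a named gene reversed under any alternative run. With genes limited to a mean of at least 5 FPKM, 2449 members were called higher and 393 of them at least 2-fold, because fewer genes were tested. In that run 2526 were called lower and 554 of them at least 2-fold, so rises no longer outnumbered falls. Apart from those counts of rises, all counts of calls over all members stayed within 1.5 times those reported. Median-ratio scaling gave 3639 higher and 3703 lower. A pseudocount of 0.1 gave 1447 rises and 1039 falls of at least 2-fold. Leaving out each wild-type library in turn gave 3214 to 3461 higher, 2676 to 2793 lower, 1013 to 1040 and 791 to 814 at least 2-fold, and 4124 to 4505 genotype differences; the lone library of a group was then assumed to vary like the others. With the replicate block 3839 were called higher, 3120 lower and 4954 different between genotypes. Same-numbered wild-type libraries did not deviate together (correlation -0.164), so the numbers were not taken to pair them; a crossed replicate block, chosen after seeing the data, gave 3855 and 3129. In all, 5240 calls were kept under every alternative in which the gene was tested. Unknown read depth leaves counting error at low FPKM unmeasured.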
